A study of Ovis aries with 40 samples.

Results

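The tricarboxylic acid (TCA) cycle genes described here are the 10 nuclear genes CS, IDH2, IDH3A, IDH3G, OGDH, SUCLG1, SDHA, SDHB, FH and MDH2, chosen by name as enzymes of the cycle or subunits of them. A gene was represented by the probe sets annotated with its symbol alone, and by the one with the highest mean signal where there were several. All 10 were measured, by 14 probe sets, among 9155 genes on the array, and all 10 were among the 6360 genes taken as detected because their mean signal reached 61.8, the median over the probe sets. The samples were longissimus muscle (LM) of 40 Poll Dorset sheep at 78 weeks of age, raised under commercial conditions with no treatment, 1 GeneChip Bovine Genome array per animal. The high muscling group held 19 progeny of sires with high estimated breeding values for eye muscle depth (sire 2, n = 7; sire 7, n = 4; sire 11, n = 8), and the low muscling group held 21 progeny of sires with low values (sire 5, n = 8; sire 16, n = 8; sire 17, n = 5). Each sire had progeny in 1 group only, so muscling rests on 3 sires against 3, and what a sire passes on and what his family shares otherwise cannot be told apart. The sex of the animals and processing batches were not in the labels.

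The TCA cycle, in the mitochondrial matrix, oxidises the acetyl group that enters as acetyl-CoA from pyruvate or fatty acids, and passes the electrons to the respiratory chain as NADH and through succinate dehydrogenase. Citrate synthase (CS) makes the first step, and its activity is commonly used as a measure of mitochondrial content in muscle. Muscle fibres differ in how much they depend on oxidation, and slow fibres, marked by the myosin MYH7, are rich in mitochondria.

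The arrays carried the signature of skeletal muscle. The mean signals of ACTA1 (muscle actin), CKM (muscle creatine kinase) and MB (myoglobin) were 24171 ± 3819, 29156 ± 2415 and 20472 ± 2531 (SD, n = 40), and the 8 measured muscle markers were all detected. Pearson r between arrays ranged from 0.902 to 0.963. The mean log2 signal of the spiked hybridisation controls, which do not come from the sheep, was 11.33 ± 0.06 in high muscling and 11.24 ± 0.09 in low muscling animals, so it moved with muscling. In a piece of muscle, fewer cells of a type and less RNA per cell cannot be told apart. Probes designed on cattle sequence were hybridised with sheep RNA. Signals of different probe sets cannot be set against each other as amounts of RNA. The level of every gene below is therefore compared only with its level in other animals.

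The first steps of the cycle run from citrate to succinyl-CoA. CS had a mean signal of 6677 ± 1178 (SD, n = 40, range 4887 to 9656). Mitochondrial NADP-dependent isocitrate dehydrogenase, IDH2, had 3315 ± 946 (1617 to 5462). IDH3A and IDH3G, the catalytic alpha subunit and the regulatory gamma subunit of the NAD-dependent enzyme, had 1195 ± 309 (682 to 1981) and 2115 ± 371 (1564 to 3269). These 4 genes differed 1.98- to 3.38-fold between their lowest and highest animal. OGDH, the first component of the oxoglutarate dehydrogenase complex, had 782 ± 254 (380 to 1470), the widest spread of the 10 genes at 3.87-fold.

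The later steps run from succinyl-CoA back to oxaloacetate. SUCLG1, the alpha subunit of succinyl-CoA synthetase, had a mean signal of 4810 ± 1152 (3194 to 7787). SDHA and SDHB, the flavoprotein and the iron-sulphur subunit of succinate dehydrogenase (complex II of the respiratory chain), had 3428 ± 538 (2513 to 4998) and 10358 ± 877 (8795 to 12528). The SD of SDHB on the log2 scale was 0.12, at the 0.252th percentile of the detected genes. Its mean signal was at the 99.3rd percentile of the probe sets. Fumarase (FH) had 3840 ± 604 (2394 to 5182). Mitochondrial malate dehydrogenase (MDH2) had 13838 ± 1670 (10514 to 19302), and its log2 SD of 0.17 was at the 2.78th percentile. On the second, dimmer MDH2 probe set, with a mean of 207, the log2 SD was 0.41. The members' median log2 SD was 0.25 against 0.38 over all detected genes. Genes of like signal were not compared, so these ranks do not tell steadiness from signal level.

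**Figure D1:**
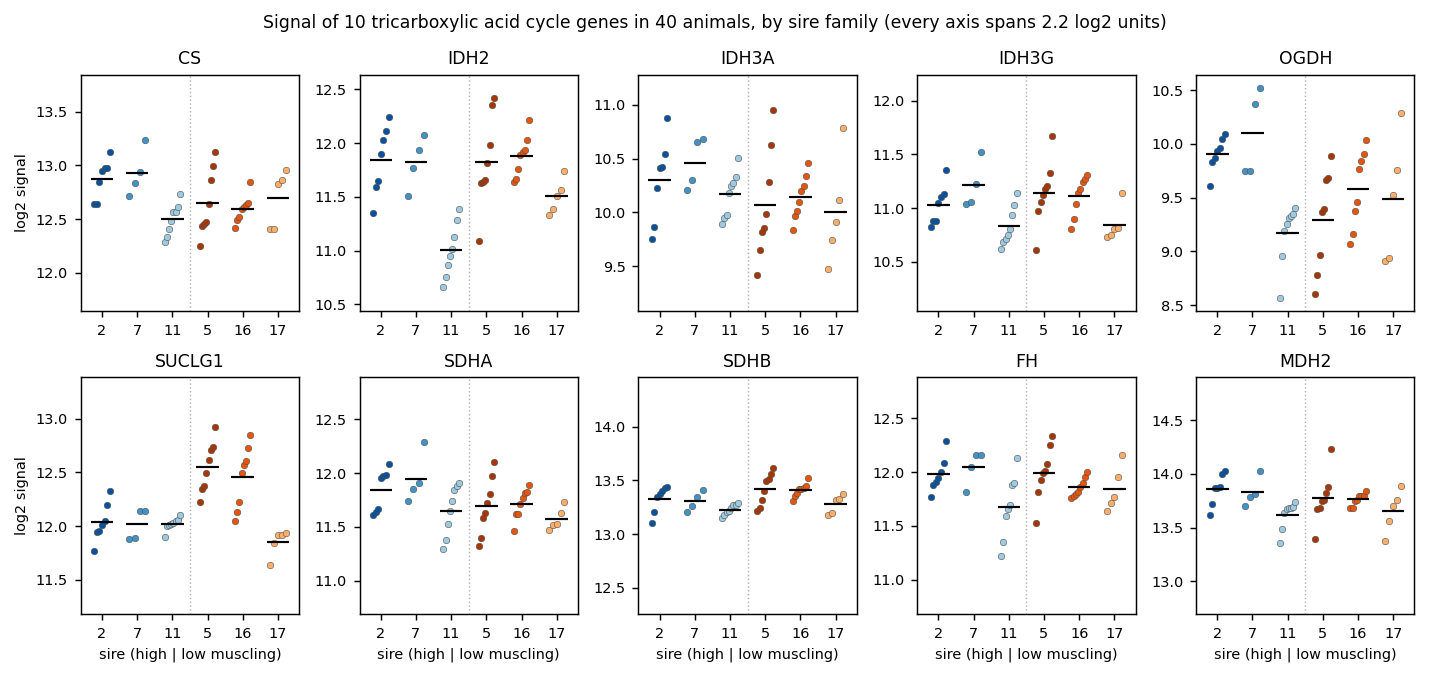
Log2 signal (y axis) of the main probe set of each of the 10 genes in 40 animals, grouped by sire (x axis, the 3 high muscling families left of the dotted line). Points are animals and black bars are family means; the sire 11 family lies low for IDH2 and OGDH, the families of sires 5 and 16 lie high for SUCLG1, and SDHB is nearly level.

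The comparison of high with low muscling asked whether breeding value for muscle depth goes with another level of these transcripts. No member passed the test (0 of 10 at an adjusted p of 0.05, limma with sire as a random block; 1 at an unadjusted p under 0.05), against 495 of 6360 detected genes (7.78%). Of the members, 5 lay above 0 and 5 below, with a median log2 difference of 0.0023 against -0.035 over all detected genes. A miss of this test does not show equal levels. The 95% interval of the difference was narrowest for SDHB, from -0.21 to 0.03 on the log2 scale, and widest for OGDH, from -0.15 to 0.61.

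SUCLG1 had the smallest p of the members. Its signals in high muscling animals had a lowest value of 3496, a median of 4158 and a highest value of 5134, and in low muscling animals 3194, 5315 and 7787. The groups overlapped, and the low muscling animals were spread far more widely than the high muscling ones. The log2 difference was -0.29 (SE 0.11, p = 0.0120), and the adjusted p of 0.0998 missed the threshold. It passed with each array centred on its median (adjusted p = 0.0469), without the block (0.00682) and without the sire 17 family (-0.48, adjusted p = 0.00033). It passed in no other setting, among them quantile normalization, either covariate, family means as samples and each other family left out. Without the block, progeny of 1 sire are treated as independent. The sire 17 family had the lowest SUCLG1 mean of the low muscling families.

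The next largest differences were those of IDH2 (log2 difference -0.24, SE 0.16), OGDH (0.23, SE 0.19) and IDH3A (0.21, SE 0.16), with adjusted p of 0.411, 0.519 and 0.470. Their signals overlapped between the groups: IDH2 had a median of 2919 in high and 3420 in low muscling animals, OGDH 860 and 706, and IDH3A 1238 and 1035. OGDH passed only without the sire 11 family (0.53, adjusted p = 0.0402). The log2 differences of the other 6 members, CS, IDH3G, SDHA, SDHB, FH and MDH2, lay between -0.09 and 0.13.

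Of the 10 detected genes of the pyruvate dehydrogenase complex, its kinases and phosphatases and the pyruvate carrier, which feed the cycle, 1 passed. Over all detected genes, 7.78% passed. The 1 gene was PDHA1, the catalytic alpha subunit of the dehydrogenase. Its signals in high muscling animals had a lowest value of 7177, a median of 8748 and a highest value of 10344, and in low muscling animals 5450, 7051 and 9075. PDHA1 was higher in high muscling animals, with overlap, by 0.32 on the log2 scale (SE 0.08, adjusted p = 0.0124). The call was lost with the hybridisation controls as a covariate (adjusted p = 0.0843). It was also lost without the family of sire 2, 5, 7 or 16 (0.0757, 0.120, 0.0518 and 0.198). With family means as samples no detected gene passed, PDHA1 included. None of the 8 detected further subunits and assembly factors of the cycle's enzymes passed, those with the smallest p being DLD, a component shared by the oxoglutarate and pyruvate dehydrogenases (0.29, adjusted p = 0.223), and SUCLA2, a beta subunit of succinyl-CoA synthetase (0.22, 0.263). A further list of 13 detected genes covered anaplerosis (refilling of the cycle) and the malate-aspartate shuttle. It also held genes that belong to neither, such as ACLY, ATP citrate lyase, and ACO1, the cytosolic aconitase. None of the 13 passed, those with the smallest p being PC, pyruvate carboxylase (0.60, adjusted p = 0.370), and ACLY (-0.43, 0.386).

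Some fibroblast markers differed between the muscling groups with sire as a random block. Of 6 markers, 4 were lower in high muscling animals, where 5.5% of detected genes were lower. Among them were COL1A1, COL1A2 and COL3A1, subunits of fibrillar collagens, at log2 differences of -0.83, -0.78 and -1.08. The remaining one, DCN, had an adjusted p of 0.0499. COL1A1 also differed between families within muscling groups (F test, adjusted p = 0.00785). With family means as samples no detected gene passed. The summed signal of the 6 markers ranged from 4745 to 11650 (median 7964) in high and from 7376 to 21951 (median 11933) in low muscling animals, and none was at 0. Of 6 leukocyte markers, 1 (ITGB2) was lower, while none of the 5 fast fibre and 6 slow fibre markers passed. The part of these markers in the values of the members was not tested.

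**Figure D2:**
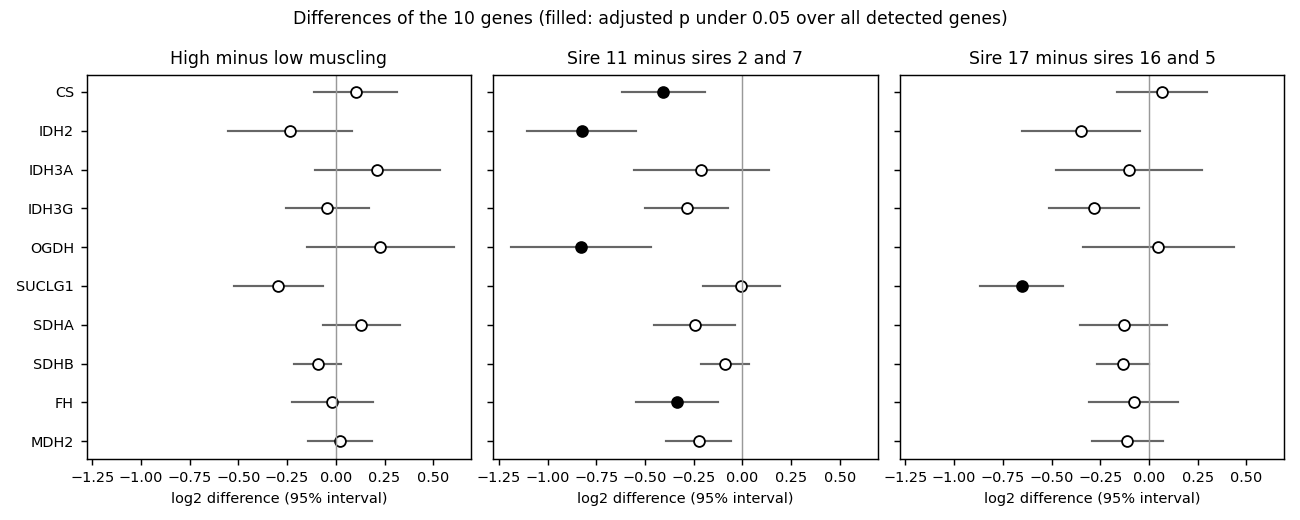
Log2 difference (x axis) with its 95% interval for the 10 genes (y axis) between muscling groups and for the 2 family contrasts in which members passed. Filled points had an adjusted p under 0.05; none did between muscling groups, 4 did in the sire 11 contrast, all below 0, and SUCLG1 did in the sire 17 contrast.

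Families within a muscling group also differed. In the F test over the 4 contrasts between sires of the same group, 4 of 10 members passed, IDH2 (adjusted p = 0.000249), SUCLG1 (0.000459), OGDH (0.00749) and CS (0.0440), against 1402 of 6360 detected genes (22%). CS was not called with median centring, with RNA quality as a covariate, without the detection filter, with the mean over all probe sets, or without the progeny of sire 2, 7, 11 or 16. SUCLG1 was not called without the progeny of sire 17, and IDH2 and OGDH were not called without those of sire 11. Sire accounted for 67.3% of the variance of SUCLG1, 60.6% of that of IDH2 and 43.3% of that of OGDH, but for 12.9% of that of IDH3A. These shares include the difference between muscling groups, which alone accounted for 25.9% of the variance of SUCLG1, 11.0% of that of IDH2, 4.14% of that of OGDH and 7.24% of that of IDH3A. The median share of sire over members was 33.9% against 25.9% over all detected genes.

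The sire 11 family was set against the other high muscling families, of sires 2 and 7. The lower members were IDH2, OGDH, CS and FH (4 of 10, where 11.8% of detected genes were lower and 19.6% differed in either direction), and all 10 members lay below 0, with a median of -0.26 against -0.05 over all detected genes.

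IDH2 signals in the sire 11 family had a lowest value of 1617, a median of 2022 and a highest value of 2684. In the sire 2 family they were 2612, 3828 and 4857, and the animals of sire 7 had 2919, 3499, 3925 and 4306. Only the highest animal of sire 11 reached the range of the others. The log2 difference was -0.83 (SE 0.14, adjusted p = 4.15e-05), a 1.77-fold lower level.

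OGDH signals in the sire 11 family had a lowest value of 380, a median of 624 and a highest value of 677. In the sire 2 family they were 781, 975 and 1092, and the animals of sire 7 had 860, 861, 1324 and 1470. The sire 11 animals lay below every animal of the other high muscling families, and the log2 difference was -0.83 (SE 0.18, adjusted p = 0.000916).

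CS signals in the sire 11 family had a lowest value of 4998, a median of 5898 and a highest value of 6803. In the sire 2 family they were 6376, 7889 and 8915, and the animals of sire 7 had 6728, 7302, 7858 and 9656. The ranges overlapped at their edges, and the log2 difference was -0.41 (SE 0.10, adjusted p = 0.00497). FH in the sire 11 family ranged from 2394 to 4488 with a median of 3269, against 3497 to 4996 in the sire 2 family and 3613, 4238, 4581 and 4589 in the animals of sire 7. The ranges overlapped widely, with a log2 difference of -0.34 (SE 0.10, adjusted p = 0.0191). IDH3G (-0.29) and MDH2 (-0.22) had adjusted p of 0.0507 and 0.0512, and SUCLG1, at -0.0054 (95% interval -0.20 to 0.19), lay nearest to 0.

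For CS and FH the direction depended on the probe set. Both genes had a second, dimmer probe set, with a mean signal of 658 ± 150 for CS and 1341 ± 235 for FH (SD, n = 40). The second CS probe set read 769 to 983 (median 815) in the sire 11 family, 513 to 677 (median 620) in the sire 2 family, and 431, 642, 752 and 892 in the animals of sire 7. The second FH probe set read 1466 to 1820 (median 1698) in the sire 11 family, 1008 to 1612 (median 1173) in the sire 2 family, and 1025, 1283, 1383 and 1394 in the animals of sire 7. Here the sire 11 family was the high one, by 0.42 on the log2 scale for CS (SE 0.11, adjusted p = 0.00728) and by 0.43 for FH (SE 0.09, adjusted p = 0.00101, over 7968 probe sets).

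The probe sets of a gene nevertheless rose and fell together within families. Over all 40 animals the second probe set had r = 0.21 with the main one for CS and 0.10 for FH, and with the sire means removed r was 0.68 and 0.70. With the signals of a gene's probe sets averaged, the sire 11 difference was 0.0061 for CS and 0.044 for FH. The lower CS and FH in this family are therefore readings of 1 probe set each. IDH2 and OGDH had a single probe set, with no second reading to set beside it.

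**Figure D3:**
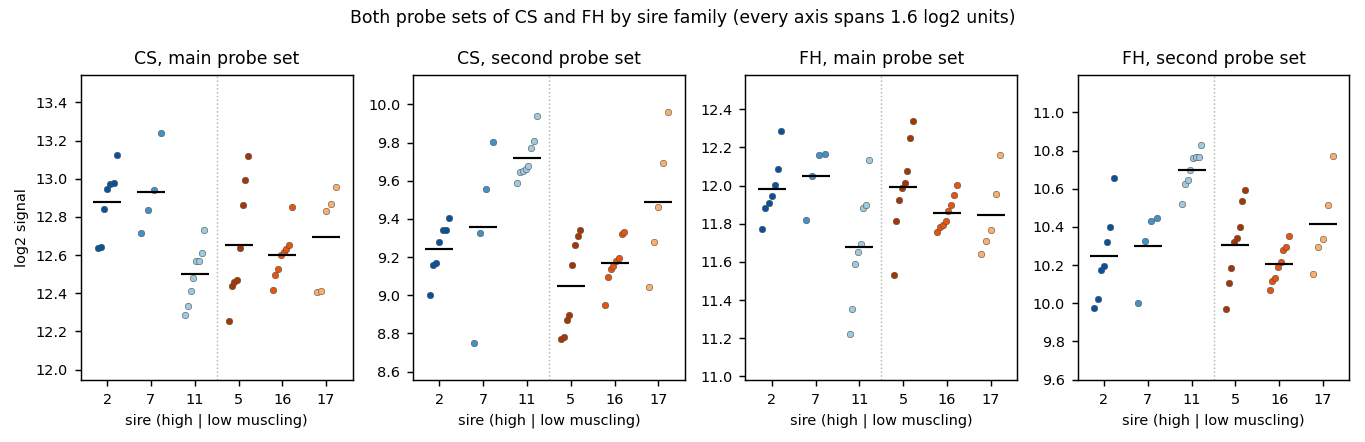
Log2 signal (y axis) of the main and the second probe set of CS and FH in 40 animals by sire (x axis, high muscling families left of the dotted line; points are animals, bars are family means). The sire 11 family is low on both main probe sets and high on both second probe sets.

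The other genes with 2 probe sets were IDH3A and MDH2. The probe sets of IDH3A had r = 0.81, and neither passed the F test between families. The second MDH2 probe set, with a mean of 207 ± 68.6, had r = 0.55 with the main one. The animals of sire 7 read 280, 324, 388 and 434 on it, above the medians of all other families, and the sire 11 family was lower than those of sires 2 and 7, at a log2 difference of -0.72 (SE 0.14, adjusted p = 0.000211).

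Of the 13 genes on the anaplerosis and shuttle list, 4 passed in the sire 11 contrast, all lower, and the median of the 13 was -0.37. Over all detected genes, 19.6% passed, 11.8% were lower, and the median was -0.05. GOT2, the mitochondrial aspartate aminotransferase, ranged from 2328 to 4521 (median 2985) in the sire 11 family, from 3325 to 5466 (median 4352) in the sire 2 family and from 4405 to 5189 in that of sire 7. It was lower, with overlap, and the log2 difference was -0.58 (SE 0.11, adjusted p = 0.000141). The others were ACO1, the cytosolic aconitase and iron regulatory protein (-0.71), SLC25A11, the oxoglutarate carrier (-0.46), and GLUD1, glutamate dehydrogenase (-0.37), with adjusted p between 0.00494 and 0.0194.

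At the entry of the cycle, 3 of 10 genes passed in the sire 11 contrast, 2 lower and 1 higher, where 19.6% of detected genes passed. PDK2 and PDK4 are kinases that switch pyruvate dehydrogenase off, and MPC1 is a subunit of the mitochondrial pyruvate carrier. PDK2 was lower (-0.61, SE 0.14, adjusted p = 0.00155), as was MPC1 (-0.34, SE 0.12, adjusted p = 0.0427). PDK4 ranged from 6970 to 15950 (median 11938) in the sire 11 family, from 97.6 to 11729 (median 7387) in the sire 2 family and from 913 to 10498 in that of sire 7. It was higher in the sire 11 family by 1.77 on the log2 scale (SE 0.62, adjusted p = 0.0404), with wide overlap and a call lost with RNA quality as a covariate (1.25, adjusted p = 0.228). None of the 8 further subunits and assembly factors of the cycle's enzymes passed.

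Some cell type markers were also lower in the sire 11 family. They were 2 of 6 fibroblast, 1 of 5 adipocyte, 1 of 5 endothelial and 2 of 8 muscle markers (DES, -0.48, and ACTA1, -0.30). None of the fibre type markers was called, and 11.8% of all detected genes were lower. The summed muscle markers ranged from 149190 to 174144 (median 158186) in the sire 11 family, 165305 to 209083 (median 190251) in the sire 2 family and 156536 to 178869 in that of sire 7. The summed fibroblast markers had medians of 8719, 7913 and 7020 in these families. None of the summed markers was at 0, and their part in the levels of the members was not tested.

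SUCLG1 followed another pattern of families. It was the only member called when the sire 17 family was set against the other low muscling families, of sires 16 and 5 (1 of 10, where 9.7% of detected genes were lower and 14.1% differed in either direction). The animals of sire 17 read 3194, 3668, 3860, 3879 and 3913. The sire 16 family had a lowest value of 4226, a median of 5913 and a highest value of 7382, and the sire 5 family 4784, 6027 and 7787. Every animal of sire 17 lay below every other low muscling animal, and the log2 difference was -0.65 (SE 0.11, adjusted p = 5.59e-05), a 1.57-fold lower level.

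The 3 high muscling families had SUCLG1 means of 4229 ± 537 (sire 2), 4158 ± 425 (sire 7) and 4159 ± 173 (sire 11), which did not differ beyond their spread. The sire 17 family had the lowest mean, 3703 ± 300, and its signals overlapped those of all 3 high muscling families. Thus 2 of the 6 families, both low muscling, had high SUCLG1. In the sire 17 family, 1 of the 13 genes on the anaplerosis and shuttle list and 1 of 10 at the entry were lower. These were GLUD1 (-0.59, SE 0.11, adjusted p = 0.000258) and MPC1 (-0.59, SE 0.13, adjusted p = 0.00165). Of the 8 further subunits and assembly factors 0 were called, and 9.7% of all detected genes were lower. MYH7 was higher in the sire 17 family (0.48, adjusted p = 0.0274), and 2 of 6 fibroblast markers and the endothelial marker PECAM1 were lower (PECAM1 -0.57).

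Sire 2 against sire 7 gave no called gene (0 of 6360 by limma, 0%, with 355 at an unadjusted p under 0.05), and sire 16 against sire 5 gave 2 (0.0314%), neither a member. The members' log2 differences ran from -0.19 to 0.03 in the former and from -0.13 to 0.28 in the latter.

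Covariation among the members was then examined over the 40 animals. Of the 45 pairs of members, 43 had a positive Pearson r, with a median of 0.48 and a range of -0.11 to 0.76, while the median over all pairs of detected genes was 0.01. With sire means removed, all 45 were positive, with a median of 0.40. MDH2 and CS had the highest mean r with the other members, at 0.56 and 0.52, and SUCLG1 the lowest, at 0.19. These are descriptions, since pairs share genes and every gene shares the arrays.

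**Figure D4:**
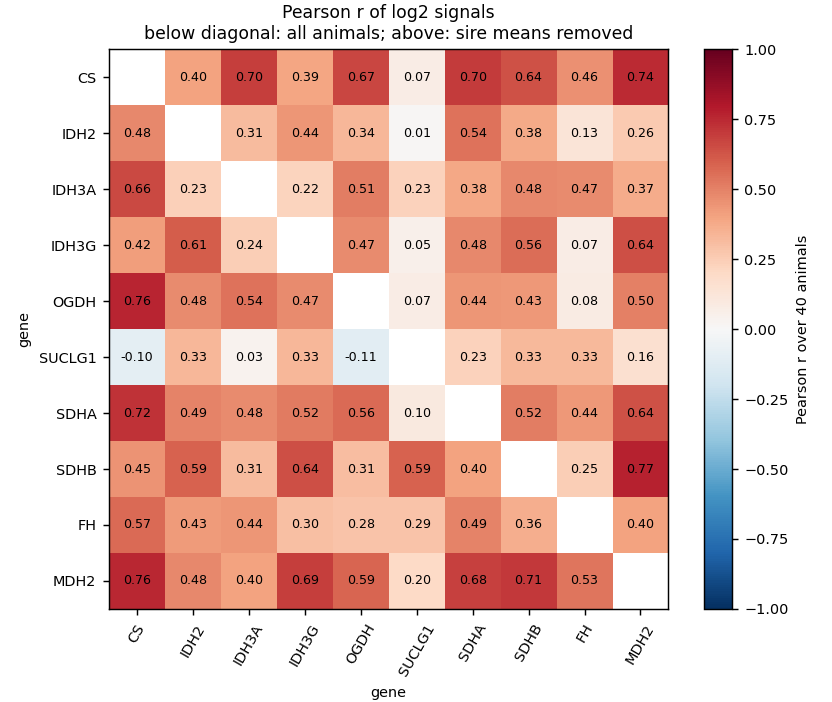
Pearson r of log2 signals between the 10 genes (both axes) over 40 animals, in all animals below the diagonal and with sire means removed above it; red is positive, blue negative. The row and column of SUCLG1 are pale, down to -0.11 with OGDH.

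CS was used as the reference for tests against all other detected genes (6359, two-sided permutation of the animals). Of the other 9 members, 7 were called, all positively, where 11.2% of genes were called and 6.21% positively. With the mean over all probe sets 4 were called, and IDH2 (r = -0.02), SDHB (0.06) and MDH2 (0.33) were not. SDHB was also not called with median centring, with RNA quality regressed out, without the detection filter, or without the progeny of sire 2, 5, 11 or 17, and IDH2 was not called without those of sire 2, 5, 7 or 11. The closest were OGDH (r = 0.76, Spearman's rho = 0.78), MDH2 (0.76 and 0.73), SDHA (0.72 and 0.67) and IDH3A (0.66 and 0.70), each with a permutation p of 1e-05 for r, the smallest that 100000 permutations can give, and an adjusted p of 0.00116. For rho, the permutation p was 1e-05 for OGDH, MDH2 and IDH3A and 3e-05 for SDHA. FH (0.57), IDH2 (0.48) and SDHB (0.45) followed with adjusted p of 0.0040, 0.0230 and 0.0397, and with rho of 0.56, 0.47 and 0.44 (adjusted p 0.00654, 0.0296 and 0.0473). IDH3G, at 0.42, missed the threshold (adjusted p = 0.0568), and SUCLG1 had r = -0.10 (adjusted p = 0.744).

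On the main CS probe set, the family means of CS and OGDH were both highest for sires 7 and 2 and lowest for sire 11. On the second CS probe set the sire 11 family had the highest mean log2 signal, 9.72, against 9.36 for sire 7 and 9.24 for sire 2. With sire means removed and animals permuted within families, 5 of 9 members were called (2.75% of genes, 1.84% positively): MDH2 (r = 0.74), SDHA (0.70), IDH3A (0.70), OGDH (0.67) and SDHB (0.64). SDHB was closer to CS within families than over all animals, while IDH2 (0.40) and FH (0.46) were no longer called. Without the animals farthest from the median of CS, 1 of sire 7 and 1 of sire 2, r was 0.72 for OGDH, 0.71 for MDH2, 0.66 for SDHA, 0.63 for IDH3A and 0.45 for SDHB, the last no longer called (adjusted p = 0.0563).

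The relations were positive in both muscling groups for all members called. OGDH had r = 0.74 with CS in high muscling animals (n = 19) and 0.76 in low muscling animals (n = 21), and MDH2 had 0.89 and 0.64. Within the low muscling group alone, OGDH was the only member called (adjusted p = 0.0424), and within the high muscling group IDH3G and SUCLG1 were the members not called. No gene had a slope on CS that differed between the groups (0 of 6359 by limma, with 369 at an unadjusted p under 0.05), and the members' adjusted p lay between 0.833 and 0.996. The interval of the difference in slope was -0.29 to 0.49 log2 units per log2 unit of CS for MDH2, and -1.26 to 0.46 for OGDH, so that sizeable differences in slope would have been missed.

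**Figure D5:**
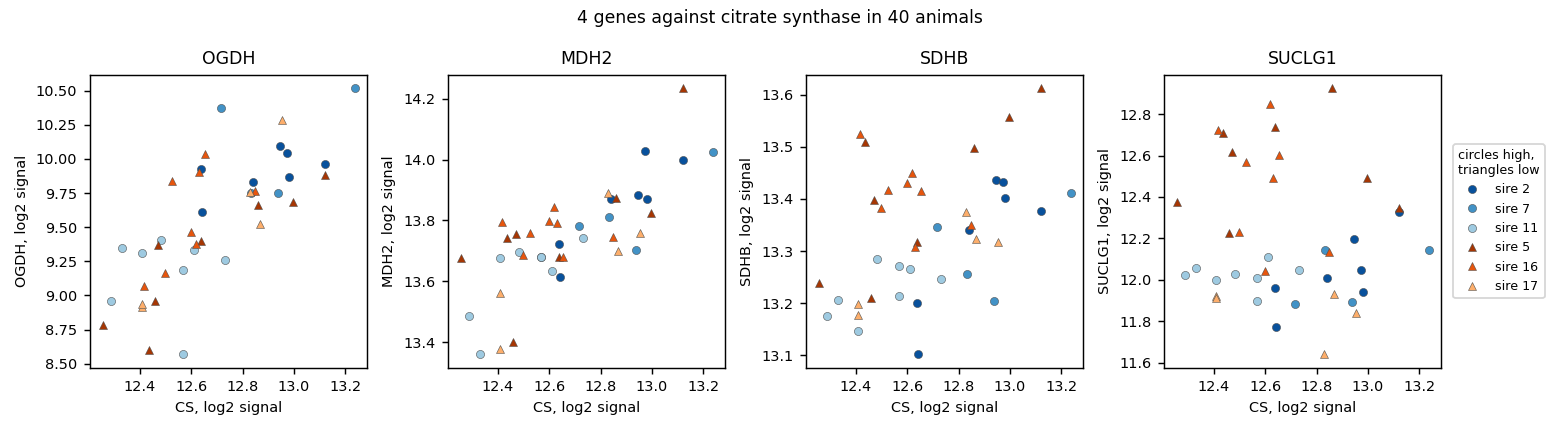
Log2 signals of OGDH, MDH2, SDHB and SUCLG1 (y axes) against that of CS (x axes) in 40 animals, coloured by sire (circles, high muscling; triangles, low muscling). OGDH and MDH2 rise with CS (r = 0.76 for both), SDHB less so (0.45), and SUCLG1 does not (-0.10), its high values belonging to the families of sires 5 and 16.

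The 5 genes closest to CS were STIM1, the calcium sensor of the sarcoplasmic reticulum (r = 0.78), ATP5F1B, the beta subunit of ATP synthase (0.77), OGDH, CCDC92 (0.76) and MDH2. The lowest r belonged to FIS1, an adaptor of mitochondrial fission (-0.77), and PTPN12, a tyrosine phosphatase (-0.71). All 7 were also called with sire means removed, where ATP5F1B had the highest r of them, at 0.84, and FIS1 had -0.70.

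Of the genes around the cycle, 7 of the 13 on the anaplerosis and shuttle list were called with CS, all positively. Among them were SLC25A11 (r = 0.72), GOT2 (0.72), SLC25A12, the aspartate-glutamate carrier (0.69), and GOT1, the cytosolic aspartate aminotransferase (0.65). Those 4 were called with sire means removed too, at 0.72, 0.60, 0.76 and 0.64. At the entry of the cycle, PDK2 (0.70), PDHA1 (0.69) and MPC1 (0.45) followed CS, and PDK4 ran against it (-0.54, adjusted p = 0.00593). PDHA1 was the closest of these within families (0.83), where PDK4 was not called. Of the further subunits, 2 of 8 were called, SUCLA2, the beta partner of SUCLG1 in the ATP-forming succinyl-CoA synthetase (0.54), and SDHC, a membrane anchor of succinate dehydrogenase (0.47).

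Markers of other kinds moved with CS as well. Of the fibre and muscle markers, MYH1 (r = 0.53), ACTN3 (0.50), MYH7 (0.47) and CKM (0.45) were called positively and TPM3 negatively (-0.43), and of the adipocyte markers, FASN (fatty acid synthase, 0.70) and LPL (lipoprotein lipase, 0.45) were called positively. None of the leukocyte, fibroblast and endothelial markers was called. The summed adipocyte markers ranged from 578 to 7783 over the animals, with none at 0. With sire means removed, FASN alone of the muscle, fibre and adipocyte markers stayed called (0.65), and the endothelial marker TEK was called negatively (-0.52). Their part in the relations of the members was not tested.

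Each other member was then taken as the reference in the same way, a choice made after the values for CS had been seen. MDH2 was called with 7 of 9 members (9.06% of genes), IDH2 with 7 (16.8%), OGDH with 6 (10.9%), IDH3G with 5 (7.66%), SDHB with 5 (15.1%), IDH3A with 4 (9.83%), SDHA with 4 (1.86%), SUCLG1 with 1 (19.2%) and FH with none (0.0944%). Of the 118 genes called with SDHA, 4 were members, and of the 1221 called with SUCLG1, 1 was.

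MDH2 and SDHB had r = 0.71 with each other and rho = 0.75. The permutation p was 1e-05 for both, with adjusted p of 0.00199 and 0.00182 with MDH2 as the reference. With sire means removed r was 0.77, and without the 2 animals farthest from the median of MDH2 it was 0.65. The genes closest to MDH2, named after their values were seen, were UQCRC1, a core subunit of respiratory complex III (r = 0.86), COX5A, a subunit of cytochrome c oxidase (0.85), and ATP5F1B (0.82), each with an adjusted p of 0.00199. Those closest to SDHB were ATP5MC1, the c subunit of ATP synthase (0.82), VDAC2, a channel of the outer mitochondrial membrane (0.80), and COX5A (0.80), each with an adjusted p of 0.000714. All of these were called with sire means removed, with r between 0.70 and 0.84. SDHA and SDHB, which form one enzyme, had r = 0.40 (adjusted p = 0.0626 with SDHB as the reference) and 0.52 with sire means removed (adjusted p = 0.101).

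The 1 member called with SUCLG1 was SDHB (r = 0.59, adjusted p = 0.00159, rho = 0.59, adjusted p = 0.00141), at 0.33 with sire means removed (adjusted p = 0.762). The genes closest to SUCLG1, also named after their values were seen, included UQCR11, a small subunit of complex III, SPCS1, a subunit of the signal peptidase complex, and ATP5MF, a subunit of ATP synthase (r = 0.80 and adjusted p = 0.000365 each). With sire means removed their r fell to 0.47, 0.40 and 0.41, and no gene was called with SUCLG1 in the permutation test (440 at an unadjusted p under 0.05). IDH2, IDH3G and FH likewise had 0 called genes within families (502, 627 and 920 unadjusted), while IDH3A had 578 (9.09%) and MDH2 84 (1.32%). OGDH had 65 called genes within families, SDHB 48 and SDHA 35. For these references fewer members were called within families than over all animals. There were 4 with MDH2, 2 each with IDH3A, SDHA and SDHB, and 1 with OGDH.

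MYH7 was used as a reference for slow fibres (8.44% of genes called). Of the members, CS was called positively (r = 0.47, rho = 0.45, adjusted p = 0.0378; 2.5% of genes were called positively and 5.94% negatively) and SUCLG1 negatively (-0.49, adjusted p = 0.0261), although the rho of SUCLG1, -0.45, missed the threshold (adjusted p = 0.0522). OGDH, at 0.39, was not called (adjusted p = 0.100), except without the progeny of sire 11. No member was called with median centring, with the mean over all probe sets, in either muscling group alone or without the progeny of sire 5. CS was also not called without the detection filter or the progeny of sire 2. SUCLG1 was also not called without the progeny of sire 16 or 17. Without the 2 animals farthest from the median of MYH7, CS had 0.42 and was not called (adjusted p = 0.0987), while SUCLG1 was (-0.49, 0.0421), and with the hybridisation controls regressed out neither was (adjusted p 0.264 and 0.204). The other 7 members had r between -0.19 and 0.30. With sire means removed no member was called (0 of 10, with 3 at an unadjusted p under 0.05, and 1.15% of genes by permutation), CS having 0.42 and SUCLG1 -0.09. The genes closest to MYH7 were TNNT1, the slow troponin T (r = 0.81), MYOT, a Z-disc protein (0.72), and ATP2A2, the slow calcium pump (0.71), followed by PDE4DIP and HERC2, and the lowest were PLEKHJ1 and RAP1B (both -0.70). All 5 other detected slow fibre markers were called with MYH7, 4 positively and 1, TPM3, negatively (r = -0.46, adjusted p = 0.0397), and all 5 detected fast fibre markers were called positively.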

How the data were processed

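RNA of 40 LM samples was hybridised to 1 array each. The authors deposited MAS5 signals, an intensity on a linear scale, 1 for each of 24128 probe sets, scaled so that the mean of each array with 2% trimmed was about 200; the version of MAS5 was not given in the sources used here, and per the labels no other step is known. Signals were taken to log2 without a floor. Gene symbols came from GEO's platform annotation (13292 probe sets with 1 symbol, 86 with several and 10638 with none, besides 112 controls, which were left out). Present flags were not used here, and array number limits the precision.

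Differences were tested with limma 3.58.1 in R 4.3.3: muscling with the sire family as a random effect (correlation within families 0.135), sires with 1 mean per family. Relations were tested with 100000 two-sided permutations of the animals, within families where sire means were removed (Python 3.11.15, numpy 2.4.6, scipy 1.17.1). Benjamini-Hochberg adjustment ran over all detected genes, at 0.05. The muscling test, the F test between sires, the slope test and the Pearson test with CS over all animals were checked on simulated data. The single sire contrasts, the Spearman tests and the tests with sire means removed were not. Replicates are separate animals, and p-values of relations treat progeny of 1 sire as independent unless sire means were removed.

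The members and lists were chosen with earlier results of these data known. Named were all members with every probe set, the genes that came closest to CS and to MYH7 (the top 5 by r, and the bottom 2), and, of the other lists, called genes (at most 4 per list and comparison, by p) or the 2 with the smallest p; other names are marked as chosen later. IDH3B, DLST, PDK1, PDP2, MDH1, SLC25A10 and SLC25A13 were not analysed here. Alternatives were other scaling, covariates, floor, filter, probe set rule and block, and each family left out.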

Additional observations from a re-analysis of the deposited data

Results flagged for a closer look

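Of the 60 combinations of a member and a sire family, 1 held an animal far from the rest of its family, and chance flags about 1 in 20 such groups. It was the highest IDH3G signal in the sire 17 family, 2251.6, where the other 4 animals lay between 1703 and 1797.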

How the results depend on the processing

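The counts of called genes moved with the setting. Among the members, they ran from 0 to 1 between muscling groups and from 1 to 6 in the sire test. With CS as the reference they ran from 1 to 7, and with MYH7 from 0 to 3. The counts over all detected genes follow. Between muscling groups, 495 genes became 309 with the hybridisation controls as a covariate, 1586 without the sire block, 0 with family means as samples and 23 to 1221 with 1 family left out (23 without sire 5, 29 without sire 16, 1221 without sire 17). The sire count of 1402 became 407 to 1389 with 1 family left out, lowest without sire 11. With CS, 715 became 440 with median centring, 175 with sire means removed, 26 in low muscling alone and 194 to 776 with 1 family left out, lowest without sire 2. With MYH7, 537 became 1030 with quantile normalization, 280 with median centring, 2 with hybridisation controls regressed out, 0 with the mean over all probe sets, 73 with sire means removed, 7 in high and 35 in low muscling alone, 264 without the farthest 2 animals and 51 to 691 with 1 family left out. Slopes on CS gave 0 to 1. The causes were not tested.

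Some members' values changed sign. The mean over all probe sets gave 0.0061 (CS) and 0.044 (FH) in the sire 11 contrast, 0.058 for FH between muscling groups, -0.022 for IDH2 with CS and -0.047 for OGDH with MYH7. Between muscling groups, turned log2 differences were 0.0020 for IDH3G, 0.016 for SDHB and 0.056 for FH with quantile normalization, 0.0044 for FH with family means, and -0.034 with median centring and -0.071 with the hybridisation controls for MDH2. With 1 family left out, the differences ranged from -0.41 to 0.073 for IDH2, -0.13 to 0.049 for IDH3G, -0.076 to 0.10 for FH and -0.030 to 0.11 for MDH2. The r of SUCLG1 with CS turned to 0.072 with sire means removed and 0.37 in high muscling alone and ranged from -0.24 to 0.0037 with 1 family left out, and with MYH7 it turned to 0.29 in high muscling alone. No paired analysis was possible because the animals of the groups share no replicate number.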
